A study of Mus musculus with 45 samples.

Results

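The data cover 6 genes linked to the uterine glands and lining, measured in 3 uterine tissues of wildtype and Plag1 knockout mice. They were the 6 rows of the count table, of 24422, whose symbols were Foxa2, Prss28, Prss29, Spink1, Lif and Calb1. The genes were chosen by name with earlier results of these data known, and the measured values that led to the choice are not recorded. All of their own levels and differences below are therefore descriptions: no p-value is given for them, and where a fit put them past or short of a threshold, this is stated beside the share of all genes and nothing is read from it.

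RNA had been measured by STRT RNA-seq, which reads the 5′ ends of polyadenylated transcripts, in sexually mature female mice of the outbred CD-1 strain. The females were wildtype (WT) or lacked Plag1, a zinc finger transcription factor (Plag1KO, here KO). Every mouse of both genotypes had received 5 IU of pregnant mare serum and, 2 days later, 5 IU of human chorionic gonadotropin, and was killed on the following day, so no group without hormones could be compared. From each of 7 WT and 7 KO mice came 3 tissues: a piece of whole uterus, the mucosa scraped off it (endometrium) and the remaining muscle wall (myometrium), which gave 6 groups of 7. Whether these females had been mated is not given in the sources used here.

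The inner lining of the uterus consists of a surface epithelium and of glands that grow from it into the stroma. Foxa2 is a forkhead transcription factor found in the gland cells and needed for glands to form. The glands secrete leukemia inhibitory factor (Lif), a cytokine on which implantation of the mouse embryo depends, and the tryptase-like proteases Prss28 and Prss29, also called implantation serine proteinases. Spink1, called Spink3 in older mouse annotations, inhibits trypsin and is made by pancreatic acinar cells and by several glands of the reproductive tract. Calb1 (calbindin D28k) binds calcium and is made by the uterine epithelium under steroid control.

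In the mm9 mouse genome, Prss28 lies on chromosome 17 from 25445591 to 25448821 and Prss29 from 25455599 to 25459626, both on the plus strand. Their genes are neighbours, with 6777 bases and no other annotated gene between them. Foxa2 lies on chromosome 2 from 147868613 to 147872705 on the minus strand, Lif on chromosome 11 from 4157560 to 4172517 on the plus strand and Calb1 on chromosome 4 from 15808411 to 15835211 on the plus strand. None of the 6, Spink1 included, overlapped another gene in GENCODE vM1, on either strand.

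The 200 bases just before the annotated starts of Prss28 and Prss29 are shown because both genes went up and down together from mouse to mouse. Capitals mark runs of at least 8 bases that both windows hold at a distance from the start that differs by at most 15 bases. The windows are chr17:25445391-25445590 and chr17:25455399-25455598 in mm9, read on the plus strand.
Prss28: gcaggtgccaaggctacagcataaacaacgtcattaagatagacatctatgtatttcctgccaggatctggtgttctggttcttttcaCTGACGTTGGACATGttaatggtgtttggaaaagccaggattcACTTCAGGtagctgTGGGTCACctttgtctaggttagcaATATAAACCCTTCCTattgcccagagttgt
Prss29: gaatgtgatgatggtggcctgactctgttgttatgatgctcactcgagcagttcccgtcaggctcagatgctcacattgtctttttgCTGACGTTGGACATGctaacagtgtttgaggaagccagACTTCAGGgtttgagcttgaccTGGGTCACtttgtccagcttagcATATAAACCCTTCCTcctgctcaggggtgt

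The shared runs covered 46 of the 200 bases, and the 2 longest were 15 bases each. Among the 22365 windows of the same length before other protein-coding genes, the longest run shared with Prss28 in the same way had a median of 6 bases and a highest value of 14. The largest number of bases in runs shared with Prss28 was 20 in those other windows. The letters TATAAA on the sense strand stood 29 bases before the start of both genes, and 6.97% of all 22367 windows held them. The letters TGTTTAC, a core of the sites that Foxa proteins bind, and the variant TGTTTGC were searched on both strands and were in neither window. They stood in 2.15% and 3.14% of all windows. A match or its absence describes the letters alone, and no position of a read start was used.

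The 2 transcripts are similar enough to raise the question of shared reads. Of the 1166 stretches of 25 bases in the Prss28 transcript, 5 also occurred in Prss29, and Prss28 shared none with the annotated protein-coding transcripts of any other gene. Other kinds of transcript were not searched. Prss29 shared at most 10 with Gm8123. Reads from those stretches could have been given to either gene.

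Depth set what could be seen of each gene. Library totals over genes ranged from 256298 to 1222627 counts, and 3 counts, taken as the smallest readable level, stood for 1.24 to 9.80 CPM in the 42 samples, where CPM are counts scaled to a common library size. The summed CPM of 7 epithelial markers (keratins, Epcam, Cdh1 and claudins) was higher in endometrium than in myometrium in 14 of 14 mice, and that of 6 smooth muscle markers was lower in 14 of 14. Endometrium of WT mouse 3 and KO mouse 13 held 13303 and 13223 CPM of smooth muscle markers, against 221 to 3580 in the other endometrium samples. Plag1 itself had at most 1 count in a library, in 2 WT and 5 KO libraries, so the genotype could not be checked in these counts. The 3 tissues of 12 of the 14 mice were placed in 1 column of the library plate each. A column held 1 mouse in rows A to C and another in rows D to F. Within either set of rows, these mice and their columns cannot be told apart. Uterus was in rows A and D, myometrium in B and E and endometrium in C and F, apart from repeat libraries of mice 12 and 13. Differences between tissues and between single rows can therefore not be told apart. In bulk tissue, fewer cells of a type and less RNA per cell cannot be told apart either.

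The proteases were the members with the most mouse-to-mouse spread. In WT endometrium, Prss29 was 106 CPM in the lowest mouse, 3811 in the median and 9413 in the highest. In KO endometrium it was 65.2, 1786 and 5668 CPM. The highest mouse was thus 89.2-fold above the lowest among WT mice and 86.9-fold among KO mice, and the ranges of the 2 genotypes overlapped.

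In whole uterus, Prss29 ran from 205 CPM through a median of 949.6 to 5995 in WT mice and from 54.2 through 449 to 1616 in KO mice. In myometrium it ran from 67.8 through 373 to 1726 in WT mice and from 7.81 through 164 to 999 in KO mice. The order of the group medians was WT endometrium, KO endometrium, WT uterus, KO uterus, WT myometrium and KO myometrium. Neighbours in this order overlapped throughout, and none of the 15 pairs of groups was free of overlap.

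Prss28 had the same order of group medians. It was 17.6, 622 and 2971 CPM (lowest, median and highest mouse) in WT endometrium and 4.55, 216 and 721 in KO endometrium. In uterus it was 32.0, 129.9 and 1597 CPM in WT mice and 0, 52.3 and 202 in KO mice. In myometrium it was 9.95, 44.8 and 511 CPM in WT mice and 0, 33.0 and 88.7 in KO mice. The highest KO uterus lay below 3 of the 7 WT uteri, and no pair of groups was free of overlap.

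The trypsin inhibitor Spink1, on chromosome 18 from 43887723 to 43896891 on the minus strand of mm9, was 35.2, 284 and 1664 CPM in WT endometrium and 5.54, 119.6 and 459 in KO endometrium. In uterus it was 42.1, 304 and 1934 CPM in WT mice and 0, 51.3 and 299.6 in KO mice. In myometrium it was 10.7, 81.5 and 264 CPM in WT mice and 2.93, 7.81 and 52.9 in KO mice. Unlike for the proteases, the highest group median was that of WT uterus, with WT endometrium next, and their ranges overlapped widely.

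Spink1 is also a product of pancreatic acinar cells, whose markers were read beside it. Of 12 acinar markers, 7 had no count in any of the 42 samples, among them Cpa1, Prss1, Pnlip and Cel, which define that cell type. The summed acinar markers ranged from 1.82 to 55.6 CPM over all samples. At most 3 of the 12 had a count in any group, and in WT uterus and KO endometrium the whole sum came from 1 marker.

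Calb1 had at most 88 counts in a sample. It was 2.51, 16.9 and 112 CPM in WT endometrium and 2.48, 12.0 and 81.9 in KO endometrium. In uterus it was 0, 5.40 and 60.1 CPM in WT mice and 0, 10.9 and 40.6 in KO mice. In myometrium it was 0, 3.94 and 21.7 CPM in WT mice, with 5 of 7 at or under 3 counts. In KO myometrium it was 0, 3.27 and 4.95 CPM, with all 7 at or under 3 counts.

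Foxa2 was near the limit of reading. It had 32 counts in all over the 7 WT endometrium samples, 15 of them in mouse 8, and 13 counts over the 7 KO endometrium samples. In CPM it was 0, 4.83 and 19.1 in WT endometrium and 0.413, 1.81 and 5.54 in KO endometrium. Uterus had 16 counts in WT and 6 in KO mice, and myometrium had 3 in WT mice and none in the 7 KO mice. KO endometrium against KO myometrium was the single pair of its groups without overlap, and with 0 counts in 7 samples the level in KO myometrium could lie anywhere under the 3-count limit of each library. In KO endometrium, 6 of 7 samples were also at or under 3 counts, and the lowest had 1 count. The share of all genes without overlap for this pair was not computed, and nothing is read from the separation.

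The endometrium sample with the most Foxa2 and Calb1 also held markers of the oviduct, the tube next to the uterine horn. In mouse 8 the oviduct secretory protein gene Ovgp1 was at 5041 CPM and the ciliated cell factor Foxj1 at 59.9 CPM, and Tmem190 had no count. Pax8, also a gene of the uterine epithelium, was at 77.7 CPM, inside its range of 30.3 to 102.6 in WT endometrium. The 13 other endometrium samples had 7.54 to 480.2 CPM of Ovgp1. The sum of the 4 oviduct markers was 62.8 to 5178 CPM in WT endometrium and 43.8 to 533 in KO endometrium. Without mouse 8, WT endometrium had a median of 4.81 CPM and a highest value of 8.12 for Foxa2, and a median of 12.5 and a highest value of 69.6 for Calb1. Mouse 8 was highest for Calb1 in its uterus and myometrium as well, where Ovgp1 was at 83.3 and 31.5 CPM. The part of oviduct tissue in these levels was not tested.

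Lif could not be read as a level in these libraries. It had at most 4 counts in a sample and 22 counts in all over the 42 samples. These were 4, 7 and 1 in uterus, endometrium and myometrium of WT mice, and 2, 7 and 1 in those of KO mice. A difference of Lif between groups was not detectable at this depth.

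**Figure D1:**
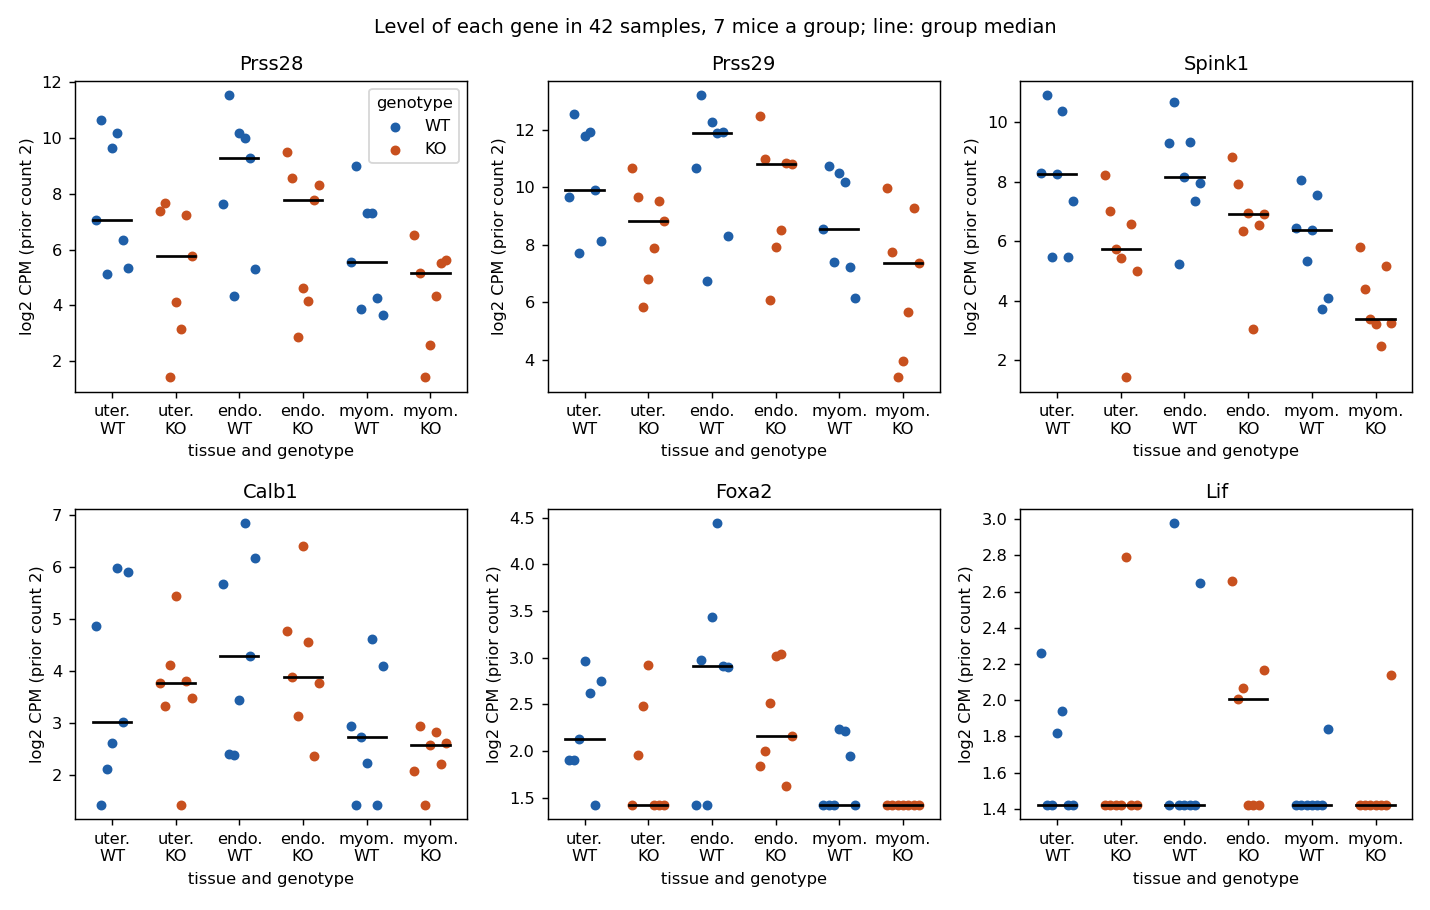
Level of each of the 6 genes on the log2 CPM scale (vertical axis, prior count 2) in the 6 groups of tissue and genotype (horizontal axis). Each point is 1 mouse, blue for WT and orange for KO, and the black line is the group median. Prss28, Prss29 and Spink1 spread widely inside every group, while most points of Lif and many of Foxa2 lie at the level of 0 counts.

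The differences among mice were shared by the 3 tissues of a mouse. WT mouse 3 was the highest of all 14 mice for Prss28, Prss29 and Spink1 in uterus, endometrium and myometrium alike. Its uterus, endometrium and myometrium held 5995, 9413 and 1726 CPM of Prss29. KO mouse 6 was the lowest of 14 for Prss28 and Prss29 in each tissue, with 54.2, 65.2 and 7.81 CPM of Prss29.

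For Spink1, KO mouse 11 was the lowest in each tissue, with 0, 5.54 and 2.93 CPM. For Calb1, mouse 8 was the highest in each tissue with 60.1, 112 and 21.7 CPM, while mouse 3, at the top for the proteases, had 0, 2.61 and 0 CPM. Among the 4 highest mice of each tissue, 3 were the same in all 3 tissues for each of Prss28, Prss29, Spink1 and Calb1. These were mice 3, 7 and 8 for Prss28, mice 2, 3 and 7 for Prss29, mice 1, 3 and 8 for Spink1 and mice 1, 8 and 12 for Calb1.

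How much of the spread lay between mice was read as the share of the within-group sum of squares of log2 CPM that the mouse accounted for. The share was 92.9% for Prss29, 92.7% for Prss28, 87.3% for Spink1 and 76.3% for Calb1. The median of 14822 genes was 36.3%, and 6, 7, 27 and 136 of these genes had a larger share than Prss29, Prss28, Spink1 and Calb1. The share was 57.7% for Foxa2 and 23.8% for Lif, both of which rest on few counts. The within-group SD of log2 CPM was 2.34 for Prss28, 2.11 for Prss29, 1.81 for Spink1 and 1.39 for Calb1, against a median of 0.59 over those genes.

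**Figure D2:**
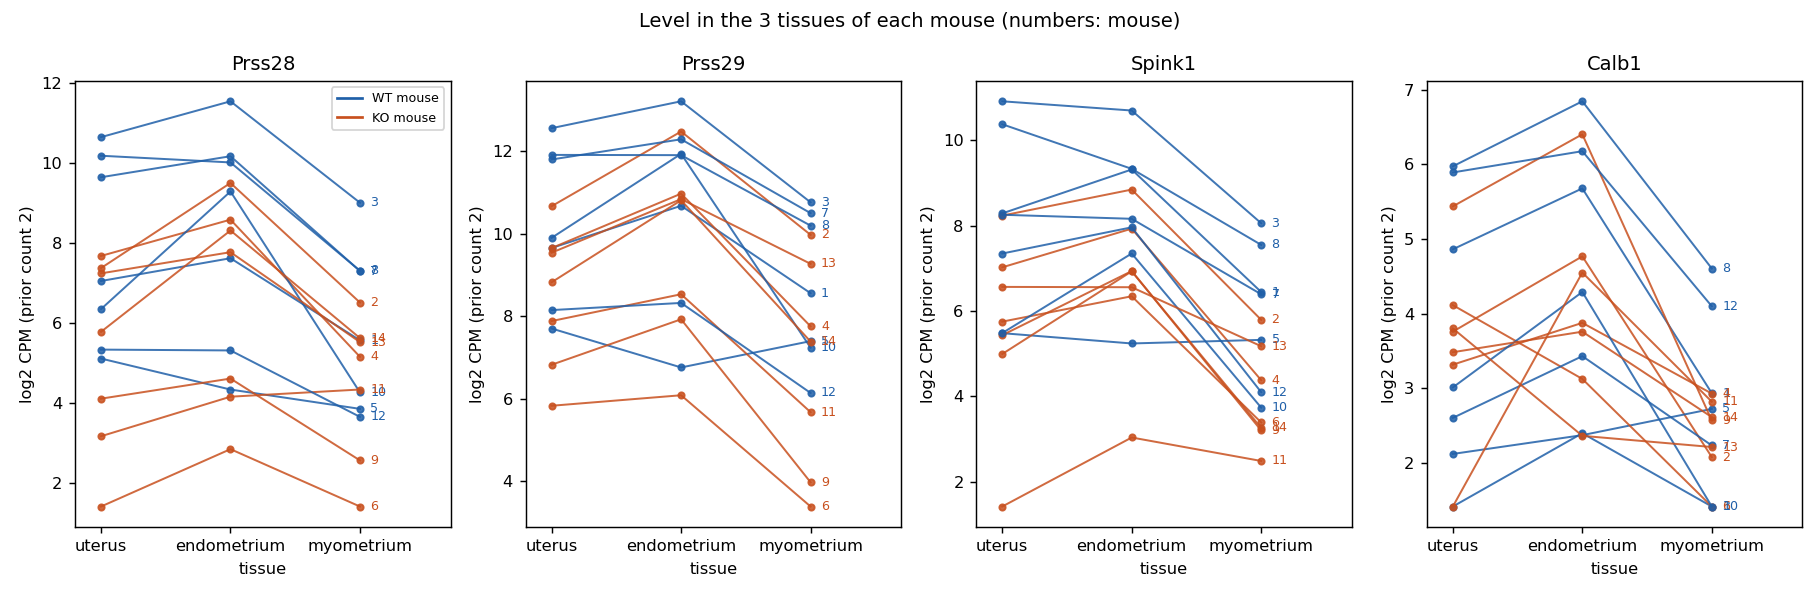
Log2 CPM (vertical axis, prior count 2) of Prss28, Prss29, Spink1 and Calb1 in uterus, endometrium and myometrium (horizontal axis), 1 line for each mouse with its number at the right, blue for WT and orange for KO. Mouse 3 tops the first 3 panels in each tissue and mouse 6 lies at the bottom of both protease panels, whereas mouse 8 tops the Calb1 panel.

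**Figure D3:**
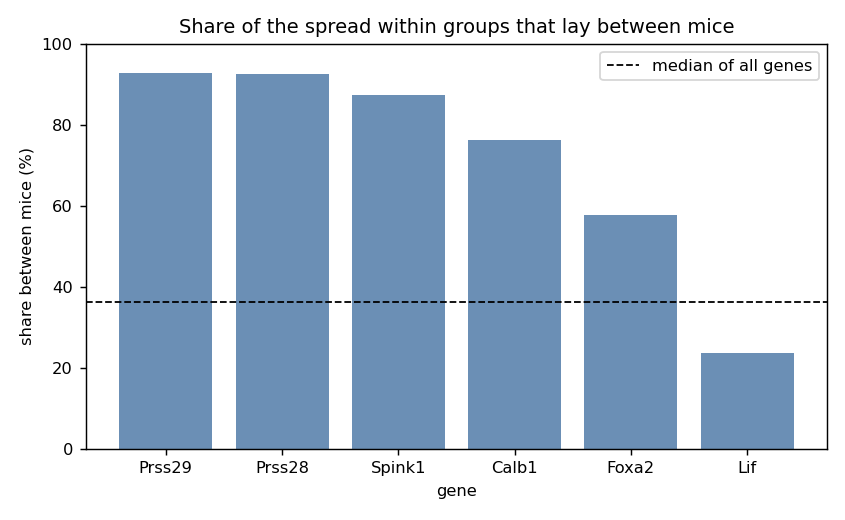
Share of the within-group spread of log2 CPM that lay between mice (vertical axis, percent) for each of the 6 genes (bars, horizontal axis), with the median of all genes as a dashed line at 36.3%. Prss29 and Prss28 reach 92.9% and 92.7%, and Lif, at 23.8%, lies under the median of all genes.

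Protease levels and epithelial markers showed no common order over the samples. WT mouse 3, with the most Prss29, had the lowest summed epithelial markers of the 14 mice in uterus and endometrium, at 913 and 983 CPM. WT mouse 5 had the highest in endometrium and myometrium, at 4274 and 968 CPM, and was the lowest WT mouse in endometrium for both proteases and Spink1. KO mouse 2 went the other way: it had the highest Prss29 of the KO mice in myometrium, 999 CPM, and also their highest epithelial sum there, 652 CPM. After removal of group means, the correlation with the epithelial sum over 42 samples was -0.07 for Prss28, -0.03 for Prss29, -0.12 for Spink1 and 0.11 for Calb1. Summed smooth muscle markers gave 0.21, 0.20, 0.16 and -0.20 and summed leukocyte markers -0.37, -0.32, -0.14 and -0.01 for the same 4 genes. Summed oviduct markers gave 0.25, 0.26, 0.18 and, for Calb1, 0.44, and summed mast cell markers 0.22, 0.14, 0.17 and -0.31. The points of these correlations share libraries and, for the 3 tissues of a mouse, the animal.

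Both proteases went together most closely. With group means removed, Pearson's r over the 42 samples was 0.95 for Prss28 with Prss29, 0.73 for Prss28 with Spink1 and 0.67 for Prss29 with Spink1. Calb1 stood apart from them, with an r of -0.09 against Prss29. These are descriptions over samples that share mice and libraries.

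The balance of both proteases was not the same in every mouse. The count of Prss29 divided by that of Prss28 was computed in the 29 samples with at least 20 counts of Prss28, and it ran from 3.17 to 14.1 with a median of 6.42. In mouse 3 the ratio was 3.75 for uterus, 3.17 for endometrium and 3.38 for myometrium. In KO mouse 2 it was 9.91, 7.86 and 11.3. In KO mouse 14 it was 8.58, 5.67 and 3.52, so the order of tissues was not shared by mice.

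**Figure D4:**
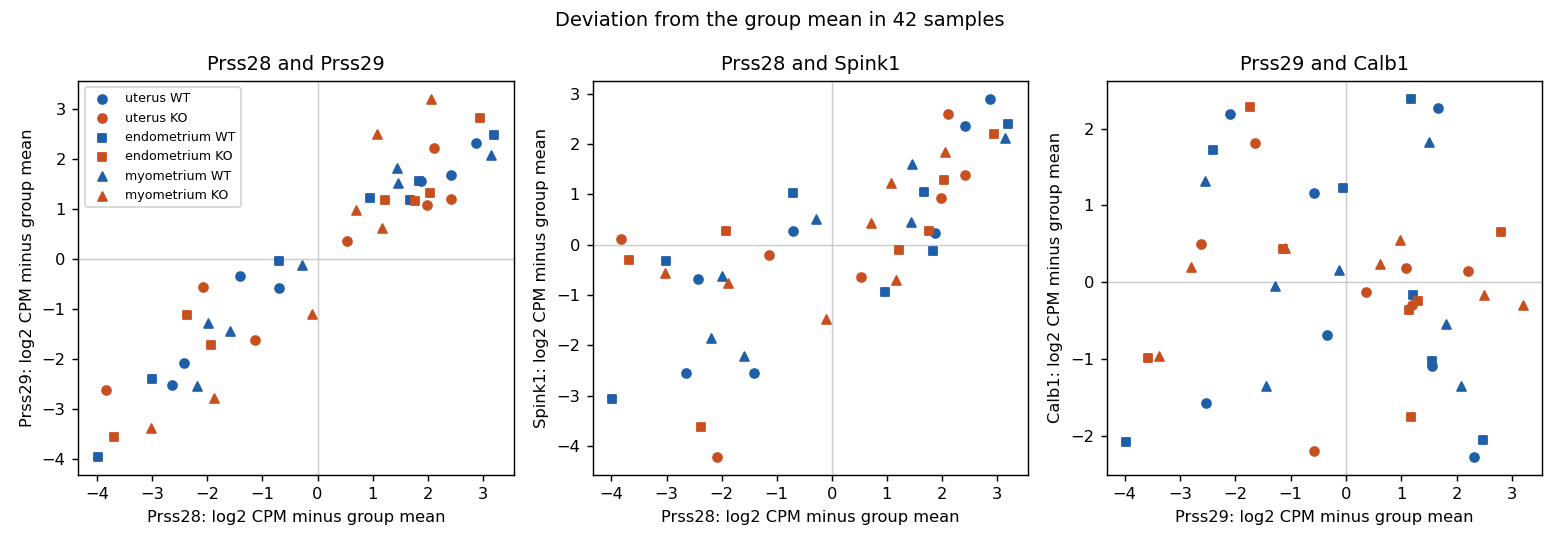
Deviation of log2 CPM from the group mean for 2 genes at a time (both axes, log2 units) in 42 samples, with circles for uterus, squares for endometrium and triangles for myometrium, blue for WT and orange for KO. Prss28 and Prss29 form a narrow band (r of 0.95), Prss28 and Spink1 a wider one (0.73), and Prss29 and Calb1 none (-0.09).

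The genes whose deviations were most like each member were listed among 8178 genes with an average log2 CPM of at least 3. After Prss29, the closest to Prss28 were Nucb2 (r of 0.76), Nmb (0.74), Spink1 (0.73) and Pinlyp (0.69). After Prss28, those closest to Prss29 were Nucb2 (0.79), Scgb3a1 (0.70), Emb (0.70) and Wfdc15b (0.69). The strongest negative value for both was that of Clca1, at -0.85 with Prss28 and -0.83 with Prss29.

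Spink1 was most like Prss28, Gas5 (0.72), Clu (0.69), Prss29 and Ramp2 (0.66). Calb1 was most like a separate set, Il17rb (0.77), Ctsd (0.76), Hdc (0.76), Gstm2 (0.70) and Plekhs1 (0.69). Foxa2 had 3 counts or more in 11 of the 42 samples, and its list (BC064078, Ms4a7, C1qa, Coro1a and H2-M3, r of 0.61 to 0.67) rests on those few counts. Lif, with 3 samples of that kind, was left out.

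Between genotypes, the fitted log2 fold changes of KO against WT were negative for Prss28, Prss29 and Spink1 in each tissue. Prss28 had values of -2.67 ± 0.86 (SE, n = 7 against 7) for uterus, -1.83 ± 0.87 for endometrium and -1.86 ± 0.63 for myometrium. For Prss29 it was -1.95 ± 0.68, -1.01 ± 0.75 and -1.29 ± 0.64 in the same order. For Spink1 it was -2.65 ± 0.78, -1.71 ± 0.64 and -2.31 ± 0.55, and for Calb1 -0.69 ± 0.75 in uterus and -0.81 ± 0.69 in endometrium. In uterus the median of Calb1 went the other way, with 10.9 CPM in KO and 5.40 in WT mice. No fold is given for Calb1 where KO myometrium enters, since each of its 7 samples was at or under 3 counts, nor for Foxa2 and Lif.

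No gene, the members included, passed an adjusted p of 0.05 in edgeR's quasi-likelihood test: the share called was 0% of 12959 genes in uterus, 0% of 13004 in endometrium and 0% of 12991 in myometrium. At an unadjusted p under 0.05 stood 731, 676 and 548 genes, which were 5.64%, 5.20% and 4.22% of those tested. DESeq2 called 0, 1 and 0 genes (0%, 0.00769% and 0%), and the 1 was Rab17.

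For Prss28, Prss29 and Spink1 these differences were smaller without mouse 3 and with a term for the plate. Without mouse 3, the log2 fold change of Prss28 came to -2.14 for uterus, -1.09 for endometrium and -0.85 for myometrium, that of Prss29 -1.49, -0.52 and -0.89 and that of Spink1 -1.98, -1.06 and -1.79. The sign stayed negative in all 14 fits that left out 1 mouse, for each of the 3 genes and tissues. Without mouse 8, the log2 fold changes of Calb1 were -0.17 in uterus and -0.17 in endometrium.

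Plate rows A to C held 5 WT and 3 KO mice and rows D to F 2 WT and 4 KO mice. With these rows as a term in the fit, the values in uterus, endometrium and myometrium were -1.67, -1.39 and -0.98 for Prss28, -1.35, -0.77 and -0.41 for Prss29 and -1.91, -1.30 and -1.54 for Spink1. For Calb1 they were -0.85 in uterus and -0.99 in endometrium. Within the rows, the KO median was under the WT median in 6 of 6 combinations of tissue and rows for Prss29 and Spink1, in 5 for Prss28 and in 4 for Calb1. In uterus, the median of Prss29 within rows A to C was 3544 CPM in WT and 799 in KO mice. Within rows D to F it was 615 and 341. In myometrium of rows D to F, the medians of Prss29 were nearly the same, at 108 CPM in WT and 106 in KO mice. The 6 combinations share mice, and the share of all genes with such a pattern was not computed.

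Endometrium stood above myometrium for most members within the same mouse. This held for Prss28 in 7 of 7 WT mice and 6 of 7 KO mice, for Prss29 in 6 and 7, for Spink1 in 6 and 7 and for Calb1 in 6 and 7. For Calb1, myometrium was at or under 3 counts in 5 of 7 WT mice and in all 7 KO mice. Nothing is read from its counts of mice. Over 14822 genes, 4.35% were higher in endometrium in every WT mouse and 7.64% in every KO mouse. The share higher in 6 of 7 mice was not computed. The median ratio of endometrium to myometrium was 4.36 for Prss29 in WT mice, from 0.637 in mouse 5 to 26.3 in the highest. In KO mice it was 8.34, from 2.97 to 18.4. For Spink1 the median ratio was 6.30 in WT and 10.1 in KO mice.

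Mouse 5 was the WT exception for Prss29, Spink1 and Calb1, the last on 1 count in endometrium and 2 in myometrium. Its myometrium held 968 CPM of epithelial markers, against 129 to 337 in the other WT myometrium samples, and 166 CPM of Prss29 against 106 in its endometrium. The part of epithelium left in that muscle sample was not tested.

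In the fits, endometrium was higher than myometrium in WT mice by a log2 fold change of 2.77 ± 0.81 for Prss28, 2.27 ± 0.67 for Prss29, 2.47 ± 0.61 for Spink1 and 2.40 ± 0.70 for Calb1 (SE, n = 7 and 7). In KO mice the values were 2.84 ± 0.76 for Prss28, 2.58 ± 0.81 for Prss29 and 3.11 ± 0.60 for Spink1. In WT mice these 4 genes were past the threshold, beside 13.2% of 13227 genes, or 6.81% counting those higher in endometrium. In KO mice Prss28, Prss29 and Spink1 were past it as well, beside 19.3% of 12969 genes, or 10.6% counting those higher in endometrium. Of the 4, DESeq2 put Spink1 past the threshold in WT mice, beside 13.3% of all genes, and Prss28 and Spink1 in KO mice, beside 19.5%. Calb1 was past it in KO mice in both tests. With all 7 of its KO myometrium samples at or under 3 counts, that call is not counted here. In WT mice 5 of 7 myometrium samples were at or under 3 counts, so the WT fold and call of Calb1 rest on few counts as well. Foxa2 reached the filter of 1 CPM in 5 samples through endometrium, with at most 1 count in any myometrium, so its calls are not counted here and no fold is given. Lif did not pass the filter in WT mice and was not past the threshold in KO mice.

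The step from myometrium to endometrium was compared between genotypes in 1 fit with an interaction term. It was larger in KO mice by 0.09 ± 1.15 on the log2 scale for Prss28, 0.33 ± 1.14 for Prss29 and 0.66 ± 0.93 for Spink1, so each value was smaller than its SE. That fit did not pair the tissues of a mouse. With each mouse as a block, the values were -0.15, 0.84 and 0.61. With plate rows as a term they were -0.23, -0.02 and 0.43. The sign for Prss28 and Prss29 thus changed with the setting, and no direction is read from it. The share of genes past the threshold was 0% of 14314, with 658 at an unadjusted p under 0.05 and no member among them.

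**Figure D5:**
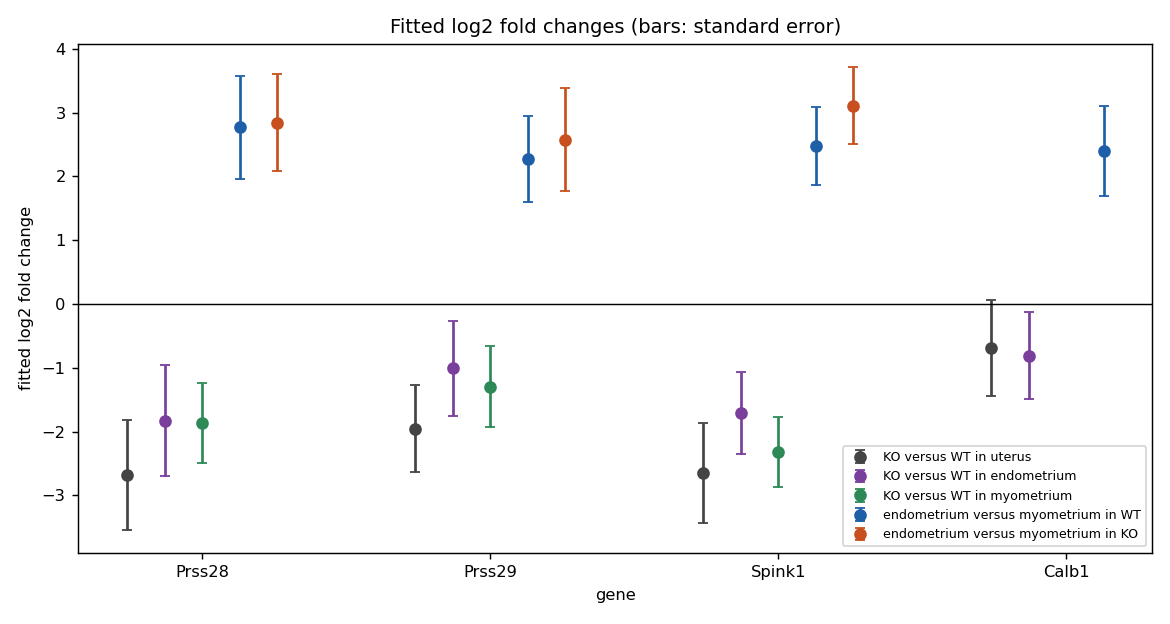
Fitted log2 fold changes (vertical axis) of Prss28, Prss29, Spink1 and Calb1 (horizontal axis) for KO against WT in each tissue and for endometrium against myometrium in each genotype. Points are estimates and bars standard errors. Calb1 has no point where KO myometrium enters. For its WT point between layers, 5 of 7 myometrium samples were at or under 3 counts. The KO against WT points lie between -2.67 and -0.69, and the endometrium against myometrium points between 2.27 and 3.11.

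The wider pathways of these genes were read from 7 lists, 127 entries in all without the members. In KO against WT mice, 0 of 92 tested list genes passed in uterus, 0 of 95 in endometrium and 0 of 86 in myometrium by edgeR. In the same test 14, 11 and 14 of them had an unadjusted p under 0.05, beside 5.64%, 5.20% and 4.22% of all genes tested. The lists were chosen with earlier results of these data known, so nothing is read from these counts. The list genes had median log2 fold changes of -0.09, -0.07 and -0.01, the members' own being given above. Between the layers, 28 of 94 tested list genes were higher and 12 lower in WT endometrium than in myometrium. In KO mice these were 31 and 14 of 89. Of all genes tested, 6.81% were higher in endometrium in WT and 10.6% in KO mice. All adjusted p-values that follow are from edgeR's quasi-likelihood test with Benjamini-Hochberg adjustment over all genes tested. The fits between layers had no term for the mouse, nor for the single plate row, which went with the tissue.

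Of the relatives of Lif, such as Il6, Il11, Osm and Clcf1, 3 could be tested in WT mice and 0 passed in edgeR's test, with 1 at an unadjusted p under 0.05. Of 14 tested genes of the Lif receptor and its signalling chain, 2 were higher and 2 lower in WT endometrium and 1 and 3 in KO endometrium. Jak2, a kinase bound to the receptor, was higher by 1.15 ± 0.34 in WT (adjusted p = 0.022, 7 of 7 mice) and 0.93 ± 0.32 in KO mice (adjusted p = 0.043, 5 of 7). Il6st, the shared signalling chain gp130, was lower, at -1.07 ± 0.28 (adjusted p = 0.011) and -1.21 ± 0.25 (adjusted p = 0.0012), in 7 of 7 mice of each genotype.

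Among genes of gland formation and gland cells, 8 of 16 tested were higher and 0 lower in WT endometrium, and 9 of 15 and 0 in KO endometrium. Pax2 and Pax8, paired box factors of the Müllerian duct epithelium, were higher by 3.01 ± 0.70 and 2.73 ± 0.46 in WT mice (adjusted p = 0.0040 and 0.00017) and by 2.90 ± 0.68 and 3.69 ± 0.56 in KO mice (adjusted p = 0.0035 and 5.1e-05). Muc1, a mucin of the apical surface, was higher by 3.06 ± 0.54 and 3.71 ± 0.67 (adjusted p = 0.00027 and 0.00031). Each of the 3 was higher in 7 of 7 mice of both genotypes.

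Among trypsin-like serine proteases other than the members, 7 were higher and 4 lower in endometrium in each genotype, of 15 tested in WT and 16 in KO mice. The membrane-bound proteases Prss8, Tmprss2 and Tmprss4 were higher by 2.48 ± 0.49, 2.50 ± 0.48 and 2.59 ± 0.45 in WT mice, with adjusted p-values of 0.00091, 0.00063 and 0.00022. In KO mice they were higher by 3.23 ± 0.45, 3.05 ± 0.51 and 3.07 ± 0.50, with adjusted p-values of 1.7e-05, 0.000145 and 9.5e-05. Tpsab1, a mast cell tryptase, was lower, at -2.71 ± 0.69 (adjusted p = 0.0085) and -2.82 ± 0.64 (adjusted p = 0.0029), in 7 of 7 mice of each genotype. Prss28 and Prss29 on one side and Tpsab1 on the other, all tryptase-like, thus lay on opposite sides between the layers. Summed mast cell markers were lower in endometrium in 13 of 14 mice.

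Among serine protease inhibitors other than Spink1, 3 were higher and 3 lower in WT endometrium and 5 and 3 in KO endometrium, of 17 tested in each. Spint1, an inhibitor of membrane-bound trypsin-like proteases, was higher by 2.85 ± 0.49 and 2.60 ± 0.43 (adjusted p = 0.00021 and 0.00012), and its relative Spint2 by 0.84 ± 0.27 and 1.21 ± 0.25 (adjusted p = 0.038 and 0.00098). Serpinh1, a collagen chaperone of the serpin family that inhibits no protease, was lower, at -1.29 ± 0.26 and -1.39 ± 0.26 (adjusted p = 0.0010 and 0.00039).

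Among calcium transport and vitamin D genes other than Calb1, 3 of 8 tested were higher and 3 lower in endometrium in each genotype. S100g, the small calbindin D9k, ran from 1287 to 7663 CPM in WT endometrium and from 85.9 to 1066 in WT myometrium, and was higher by 2.60 ± 0.43 in WT and 2.61 ± 0.35 in KO mice (adjusted p = 0.00015 and 1.3e-05). Trpv6, a calcium channel of epithelia, was higher by 2.59 ± 0.54 and 3.09 ± 0.57 (adjusted p = 0.0014 and 0.00037). Atp2b4, a calcium pump of the plasma membrane, was lower, at -2.08 ± 0.38 and -1.84 ± 0.30 (adjusted p = 0.00038 and 0.00012). Calb1 and S100g thus lay on the same side between the layers, although with group means removed S100g went with Prss29 (r of 0.64 over 42 samples), a gene singled out after its value was seen.

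Among progesterone and estrogen response genes, 5 of 21 tested were higher and 0 lower in WT endometrium, and 5 of 17 higher and 1 lower in KO endometrium (Klf15, named after its value was seen, at -1.54 ± 0.49 with an adjusted p of 0.026, lower in 7 of 7 mice). The homeobox factor Msx1 was higher by 2.44 ± 0.35 and 2.38 ± 0.40 (adjusted p = 3.7e-05 and 0.000135). Ltf, the gene of lactoferrin, an estrogen-induced secretion of the lining, was higher by 2.51 ± 0.63 and 2.98 ± 0.67 (adjusted p = 0.0080 and 0.0024). Among the list genes, the deviations that ran most strongly against those of the proteases were those of Fxyd4, from the gland list, with an r of -0.67 for Prss28 and -0.60 for Prss29. Muc1 had -0.59 and -0.53 and Ltf -0.51 and -0.46, and C3 had -0.59 for Spink1 (chosen after these values were seen). Over the 63 list genes with an average log2 CPM of at least 3, the median r was 0.05 for Prss28, 0.09 for Prss29, 0.00 for Spink1 and 0.04 for Calb1.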

How the data were processed

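The authors deposited 1 table of raw counts, whole numbers with no scaling, for 24422 gene symbols and 92 ERCC spike-ins in 45 libraries. The labels name HTSeq and mm9, while the study's methods name TopHat, molecular identifiers and Homer; how reads with several positions were treated is not given in the sources used here. Tissue, genotype and mouse number came from the labels and gave 6 groups. Repeat libraries of a mouse and tissue (3 for KO mouse 13 endometrium, 2 for WT mouse 12 myometrium) were summed, which left 42 samples, 7 mice a group.

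From the deposited counts, CPM with TMM factors were computed over all samples, and log2 CPM with a prior count of 2. Each comparison was fitted on its own samples with edgeR 4.0.16 (quasi-likelihood test, R 4.3.3) on genes that reached 1 CPM in 5 samples or more; p-values were adjusted by Benjamini and Hochberg's method and read at 0.05. The reported fits had no term for the mouse, so the tissues of a mouse were not paired in them. Standard errors were derived from the fold change and its F statistic. DESeq2 1.42.0 and other settings were alternatives. The fits of KO against WT in uterus and of the layers in WT mice were tested on simulated data. That test gave all genes the same dispersion and changed genes with more counts than Foxa2 or Lif had. Its outcome is not given, and nothing about the members is read from it. The smallest readable level covers counting error only. Standard errors and p-values include the spread between the samples of a fit. In the fits of KO against WT within a tissue, each sample was a different mouse, so this was the spread between mice. In the fits between layers, both tissues of a mouse entered as separate samples, so their p-values do not measure the spread between mice alone.

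The mouse number in the labels pairs the tissues. Across 8179 genes, the deviations of endometrium and myometrium of the same mouse correlated at 0.04 to 0.25 (median 0.14), over 0.1 in 12 of 14 mice. Tissues of different mice were not compared in this way, so these values are no check of the pairing.

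The 6 genes and all lists were chosen with earlier results of these data known. Named were the 6 genes, Plag1, up to 4 genes a list and direction that passed between layers in both genotypes, the 5 genes most like each member, and genes said to be chosen after their values were seen. Spink1 was found under that symbol in the count table and as Spink3 in GENCODE vM1. Sequences were read from the NCBIM37 (mm9) genome. One result on a list gene is not reported here.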

Additional observations from a re-analysis of the deposited data

Results flagged for a closer look

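Of 35 levels of a gene in a group of 7 mice, 4 held a value whose gap to its nearest neighbour, on the log2 CPM scale, was over 0.568 of the range of the group. Chance flags about 1 in 20 groups of normally distributed values. KO mouse 11 had 5.54 CPM of Spink1 in endometrium, against 78.8 in the next lowest KO mouse, and it was the lowest of all mice in the other two tissues as well. The remaining values were for Lif, where 1 or 2 counts in a mouse stood against 0 in the 6 others: 1.73 CPM in myometrium of KO mouse 14, 0.905 CPM in myometrium of WT mouse 12 and 4.24 CPM in uterus of KO mouse 11. A group of that kind is always flagged, since the gap is its whole range. The 4 can therefore not be set against 1 in 20.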

How the results depend on the processing

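Between endometrium and myometrium, DESeq2 put 2 members past the threshold in WT mice and 3 in KO mice, beside 13.3% and 19.5% of all genes. By edgeR it was 5 in each, beside 13.2% and 19.3%, with Foxa2, which passed the filter through endometrium, among them. Calb1, whose KO myometrium was at or under 3 counts, was among those of KO mice in both tests. A filter at 10 CPM, which removed Foxa2, Lif and Calb1 from the KO fit, left 3 in KO mice. Leaving out 1 mouse at a time gave 3 to 5 members in each genotype, with 3 without mouse 10 in WT and without mouse 4 or 14 in KO mice. All genes past the threshold then numbered 1158 to 1825 in WT mice, the lowest without mouse 10, and 1852 to 2266 in KO mice. In the fits that took each mouse as a replicate block, the same 5 members passed in each genotype, and 10 genes passed for the interaction against 0 without it, with no member among them. The block changed no other call on the members. Between genotypes, where no gene passed, DESeq2 called 1 gene in endometrium (Rab17) and spike-in scaling 1 in myometrium (Gapdh). No filter, which kept every gene with a count, gave 3 in myometrium (Cfd, Gapdh and Spink1), so that 1 member passed there. For settings other than the reported fits and DESeq2, the share of all genes called is not given. Nothing is read from their calls on members. Leaving out 1 mouse gave 0 to 1 genes in uterus (Atp7a) and 0 to 1 in myometrium (Gapdh or Atp7a). The causes were not tested. The remaining counts stayed within 1.5 times of the reported ones, and no called fold change of a member changed sign. Medians within plate rows were added after the data were seen. Depth limits Foxa2 and Lif throughout.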
